A study of Mus musculus with 10 samples.

Results

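The 10 genes described here belong to the ATF4 and amino acid stress response and were measured in fetal mouse lung with and without epithelial Hdac3, a histone deacetylase of the NCoR/SMRT corepressor complexes. They are Atf4, Ddit3, Trib3, Chac1, Sesn2, Asns, Psat1, Phgdh, Shmt2 and Mthfd2. They were chosen by name from the known pathway, with earlier results of these data known, and each was matched to the probe sets annotated to its symbol alone. All 10 had exactly 1 such probe set, and they are 10 of the 17919 genes that could be named this way. In the knockout lungs, Asns, which makes asparagine, rose 1.52-fold and was the 1 member called. The other 9 members were not called, and their differences ran in both directions, from a log2 change of -0.42 for Psat1 to 0.31 for Trib3.

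The knockout group consisted of 5 lungs labelled Shhcre:Hdac3fl/fl, and the control group of 5 lungs labelled Shhcre control. All 10 embryos were collected at E18.5 on a background given as C57BL/6 and 129X1,129S6, and each lung was hybridised to its own array. Shh-Cre recombines in the lung epithelium, and whole lung was profiled, so RNA of unrecombined mesenchyme, endothelium and blood contributes to every value. Per the labels, Hdac3 fl/fl mothers were mated to Hdac3 fl/+ fathers carrying ShhCre, so every embryo inherited a floxed allele from its mother. The control label gives the Cre but not the Hdac3 alleles, and which litters the lungs came from is not stated.

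ATF4 is a bZIP transcription factor whose mRNA is translated more efficiently when the initiation factor eIF2alpha is phosphorylated, for example by GCN2 during amino acid shortage or by PERK during endoplasmic reticulum stress. Its protein level can therefore change without a change in Atf4 mRNA, and its activity is usually read from its targets. Those targets include amino acid synthesis enzymes and transporters, tRNA synthetases, and the stress regulators Ddit3, Trib3, Chac1 and Sesn2. ATF4 with a C/EBP family partner binds the C/EBP-ATF response element, whose core can be written TGATGNAA.

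The promoters are shown because they separate members that hold this core from members that do not. RefSeq promoter windows on GRCm38.p6, from 250 bases before to 50 after the annotated start, were found for all 10 members (11 windows, as Psat1 has an additional start). The core was searched on both strands and was found in the windows of 3 members, Asns, Trib3 and Chac1. Of all 32851 promoter windows 3.97% hold it, and of the 17197 windows of genes measured here 2.65% do. In the sequences below, read 5′ to 3′ on the strand of the gene, capitals mark the core on either strand. In Asns the first block of capitals, GCAGTGTCA, marks instead the core of the antioxidant response element, TGACNNNGC, on the opposite strand, which 12.4% of all windows hold. The 2 searched motifs do not overlap there.
Asns (chr6:7693210-7693459, minus strand, the 250 bases before the start): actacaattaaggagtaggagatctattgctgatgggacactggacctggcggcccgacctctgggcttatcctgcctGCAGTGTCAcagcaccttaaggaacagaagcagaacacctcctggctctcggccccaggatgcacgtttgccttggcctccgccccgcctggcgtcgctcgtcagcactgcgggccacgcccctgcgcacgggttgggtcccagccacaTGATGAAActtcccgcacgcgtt
Trib3 (chr2:152344028-152344057, minus strand, 30 bases around the core): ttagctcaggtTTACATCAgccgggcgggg
Chac1 (chr2:119351019-119351086, plus strand, 68 bases around the core): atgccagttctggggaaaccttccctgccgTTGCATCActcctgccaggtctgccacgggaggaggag

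Counted from the annotated start, the first base of the core lay at position -23 in Asns, -193 in Chac1 and 14 in Trib3. The antioxidant core was also found in the windows of Sesn2 and Phgdh. The windows of Atf4, Ddit3, Psat1, Shmt2 and Mthfd2 held neither motif, which says only that these letters are not in these 300 bases. The Mthfd2 window was built on a start that differs from the gene's annotated first base, as was that of the additional Psat1 start.

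The deposited values are log2 probe set levels. Array medians lay between 7.43 and 7.46, and correlations between lungs between 0.984 and 0.995. Hdac3 itself had log2 levels of 10.57, 10.54, 10.61, 10.34 and 10.43 in the knockout lungs, against 10.80, 10.90, 10.80, 10.67 and 10.90 in the control lungs. Each knockout lung lay below every control lung (log2 change -0.31 ± 0.07 SE, limma adjusted p = 0.0203, and 0.0526 without control 2 or 0.0545 without control 5). On the second principal component, with 22.1% of the variance, knockouts 4 and 5 lay at -13.23 and -17.03 and knockouts 1 to 3 between -0.64 and 3.54. Controls 4 and 5 lay at -2.56 and -2.84 and controls 1 to 3 between 8.89 and 14.49. The labels name no batch, and values within each of these sets are given beside the results below. Alveolar type 2 cell markers were bright, with a mean log2 level of 12.21 ± 0.14 in the knockout lungs and 12.30 ± 0.05 in the control lungs (SD, n = 5 each, 5 genes).

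Over all genes, limma called 276 higher and 283 lower in the knockout at an adjusted p under 0.05, which is 1.54% and 1.58% of the 17919 tested. Among the 10 members 1 was called higher and 0 lower, and 5 had an unadjusted limma p under 0.05, a level that 13.5% of all genes reached. The median log2 change was 0.08 over the members and 0.00425 over all genes, and 8 of 10 members against 52% of all genes had a positive change. With the replicate number as a block, 2 members were called higher and 0 lower, where 2.28% and 2.44% of all genes were called. Asns was the only member whose groups did not overlap. All knockout lungs lay above all control lungs for 2.44% of all genes, and below them for 2.66%.

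**Figure D1:**
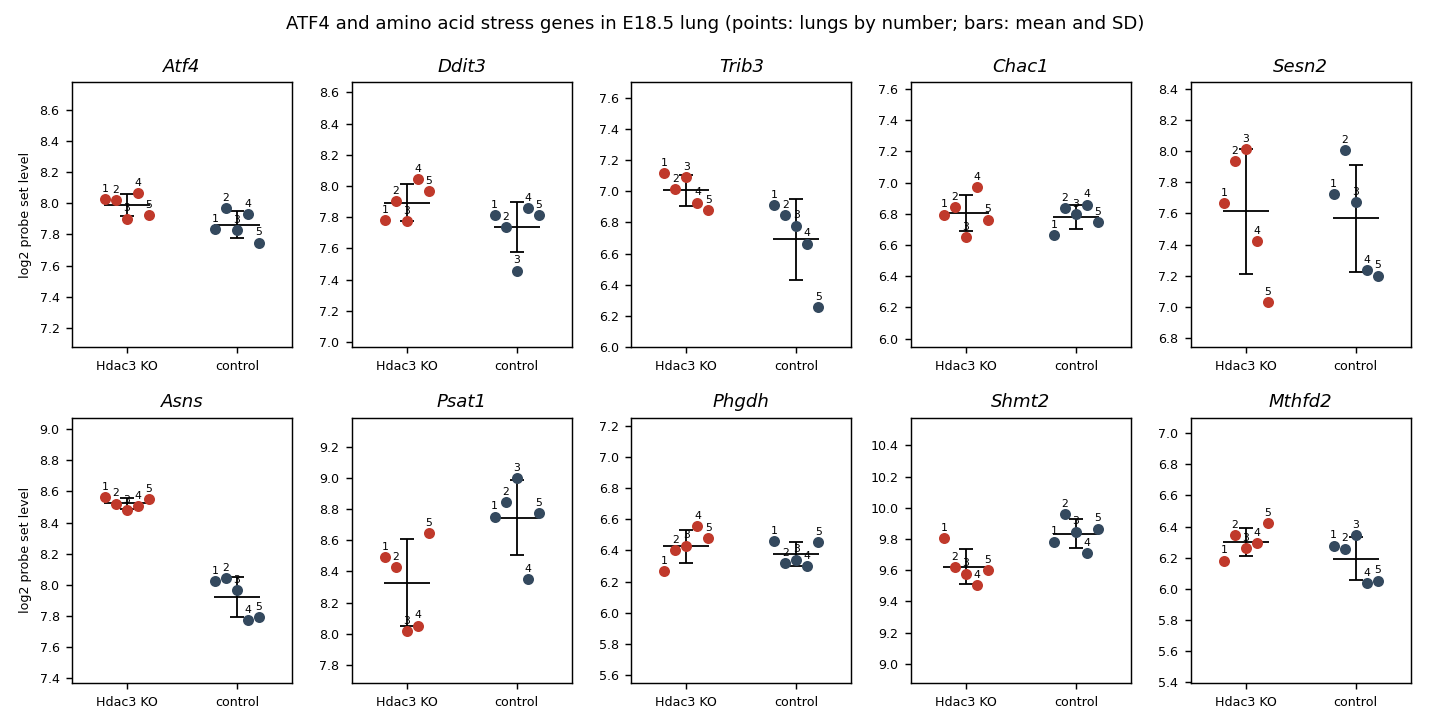
Log2 probe set level (vertical axis, each panel spanning the same number of log2 units) of the 10 members in 5 Hdac3 knockout lungs (red, left) and 5 control lungs (dark, right). Points are lungs with their replicate number, and bars give the mean and SD; only Asns has groups that do not overlap, and Sesn2 is lower in lungs 4 and 5 of both groups.

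Asns encodes asparagine synthetase, which transfers an amide nitrogen from glutamine to aspartate and is a textbook ATF4 target. Its log2 levels were 8.56, 8.52, 8.48, 8.50 and 8.55 in the knockout lungs, against 8.02, 8.04, 7.97, 7.77 and 7.79 in the control lungs. The knockout lungs lay within 0.09 of each other, the control lungs within 0.27, and a gap of 0.43 separated the lowest knockout from the highest control. The log2 change was 0.60 ± 0.06 (SE, 95% interval 0.47 to 0.74), with limma adjusted p = 0.000161 and means of 8.52 ± 0.03 in knockouts and 7.92 ± 0.13 in controls (SD, n = 5 each). An exact two-sided permutation test over the 252 assignments gave p = 0.00794, the smallest it can give. By limma's p, Asns ranked 42 among all genes. The number of members standing above every control was 3, 5, 3, 6 and 4 in knockouts 1 to 5, and Asns counts in each. The matching share of all genes was not computed for single lungs, so these counts cannot be set against it.

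The same-numbered differences for Asns were 0.54, 0.48, 0.51, 0.73 and 0.76, all higher in the knockout. Within lungs 1 to 3 the difference was 0.51, and within lungs 4 and 5 it was 0.74. The 2 lowest control values belong to controls 4 and 5, while the knockout lungs 4 and 5 sit among the other knockouts. Leaving out any 1 lung kept the change between 0.57 and 0.63 and the adjusted p at 0.000812 or below.

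Asns was set beside every other gene by the root mean square difference over the 10 lungs, after each gene was centred on its own mean. The 3 nearest were Mir341, Krt8 and Frmd8, at 0.072, 0.10 and 0.10 log2 units, where Asns itself varied by 0.31 about its mean. This centring keeps the difference between the groups, so the measure mainly picks genes with a similar log2 change. It does not show that these genes follow Asns from lung to lung within a group. The probe set named Mir341 carries the name of a microRNA precursor and had a log2 change of 0.63. Krt8, a keratin of simple epithelia, had 0.74 and Frmd8 0.73.

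Atf4, the transcription factor itself, had log2 levels of 8.03, 8.02, 7.90, 8.06 and 7.93 in the knockout lungs, against 7.84, 7.97, 7.83, 7.93 and 7.75 in the control lungs. Knockouts 1, 2 and 4 lay above every control, and knockouts 3 and 5 lay within the control range. The log2 change was 0.13 ± 0.06 (SE, 95% interval 0.01 to 0.25) and was not called (limma adjusted p = 0.341). Its whole interval lies below that of Asns, although the difference between the 2 genes' changes was not tested.

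Ddit3 encodes CHOP, a C/EBP family factor induced late in the response and linked to cell death. Its log2 levels were 7.78, 7.90, 7.77, 8.04 and 7.97 in the knockout lungs, against 7.81, 7.74, 7.46, 7.86 and 7.81 in the control lungs. The groups overlapped, with knockouts 2, 4 and 5 above every control, and control 3 was the lowest lung of all. Ddit3 was not called, with a log2 change of 0.16 ± 0.08 (SE, 95% interval -0.02 to 0.34, limma adjusted p = 0.445).

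Trib3 encodes a pseudokinase that is induced by ATF4 and CHOP and restrains them in turn. Its log2 levels were 7.12, 7.01, 7.09, 6.93 and 6.88 in the knockout lungs, against 6.91, 6.85, 6.78, 6.66 and 6.26 in the control lungs. In both groups lungs 4 and 5 were the lowest, and knockout 5 lay below control 1, while every knockout exceeded the control of its own number. The log2 change of 0.31 ± 0.11 (SE, 95% interval 0.08 to 0.55) was not called without the block (limma adjusted p = 0.187) and was called with the replicate block (adjusted p = 0.0421). The difference was 0.23 within lungs 1 to 3 and 0.44 within lungs 4 and 5, where control 5 (6.26) stood lowest. Without control 5 the change was 0.20, the lowest value on leaving out any 1 lung.

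Chac1 encodes a glutathione-degrading enzyme and is among the most inducible ATF4 targets in cultured cells. Its log2 levels were 6.79, 6.84, 6.65, 6.97 and 6.76 in the knockout lungs, against 6.66, 6.83, 6.80, 6.86 and 6.75 in the control lungs. The knockout range (6.65 to 6.97) was wider than the control range (6.66 to 6.86) and enclosed it. Chac1 was not called, with a log2 change of 0.02 ± 0.06 (SE, 95% interval -0.11 to 0.16, limma adjusted p = 0.934). Of the 3 members with the core shown above, Asns was called, Trib3 was called with the block and Chac1 was not called either way.

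Sesn2 encodes sestrin 2, a leucine sensor that restrains mTORC1. Its log2 levels were 7.67, 7.93, 8.01, 7.42 and 7.03 in the knockout lungs, against 7.72, 8.01, 7.67, 7.23 and 7.20 in the control lungs. It varied most among the members within each group, with an SD of 0.40 in knockouts and 0.34 in controls. Lungs 4 and 5 lay below lungs 1 to 3 in both groups, by 0.65 in knockouts and 0.58 in controls. The difference between genotypes was 0.04 ± 0.20 (log2 change, SE, 95% interval -0.38 to 0.47, limma adjusted p = 0.963), the widest interval of any member.

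Phgdh and Psat1 encode consecutive enzymes of serine synthesis from a glycolytic intermediate. Phgdh had log2 levels of 6.27, 6.40, 6.43, 6.56 and 6.48 in the knockout lungs, against 6.46, 6.32, 6.34, 6.30 and 6.45 in the control lungs. Knockout 1 was the lowest of all lungs and knockouts 4 and 5 the highest, with the groups overlapping. All values lie close to the 20th percentile of all values (6.11), where a change can be compressed, and the log2 change was 0.05 ± 0.06 (SE, 95% interval -0.08 to 0.18, limma adjusted p = 0.799).

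Psat1 had log2 levels of 8.49, 8.43, 8.02, 8.05 and 8.65 in the knockout lungs, against 8.75, 8.84, 9.00, 8.35 and 8.78 in the control lungs. Every knockout lay below the control of its own number and below the control mean, but control 4 lay within the knockout range. The log2 change of -0.42 ± 0.14 (SE, 95% interval -0.72 to -0.11) was not called (limma adjusted p = 0.168, and 0.0778 with the replicate block). It was -0.55 within lungs 1 to 3 and -0.21 within lungs 4 and 5.

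Shmt2 and Mthfd2 encode mitochondrial enzymes that take the one-carbon unit of serine into the folate pool. Shmt2 had log2 levels of 9.80, 9.62, 9.58, 9.51 and 9.60 in the knockout lungs, against 9.78, 9.96, 9.85, 9.71 and 9.87 in the control lungs. Knockouts 2 to 5 lay below every control, while knockout 1 lay within the control range. The log2 change of -0.21 ± 0.06 (SE, 95% interval -0.35 to -0.07) was not called (limma adjusted p = 0.123), and without knockout 1 it was -0.26 and called (adjusted p = 0.0463). It was -0.19 within lungs 1 to 3 and -0.23 within lungs 4 and 5.

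Mthfd2 had log2 levels of 6.18, 6.35, 6.26, 6.29 and 6.42 in the knockout lungs, against 6.28, 6.26, 6.34, 6.04 and 6.05 in the control lungs. These are close to the 20th percentile of all values, as for Phgdh. Mthfd2 was not called, with a log2 change of 0.11 ± 0.07 (SE, 95% interval -0.05 to 0.26, limma adjusted p = 0.594). The difference was -0.03 within lungs 1 to 3 and 0.31 within lungs 4 and 5, and controls 4 and 5 were the lowest of all lungs.

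**Figure D2:**
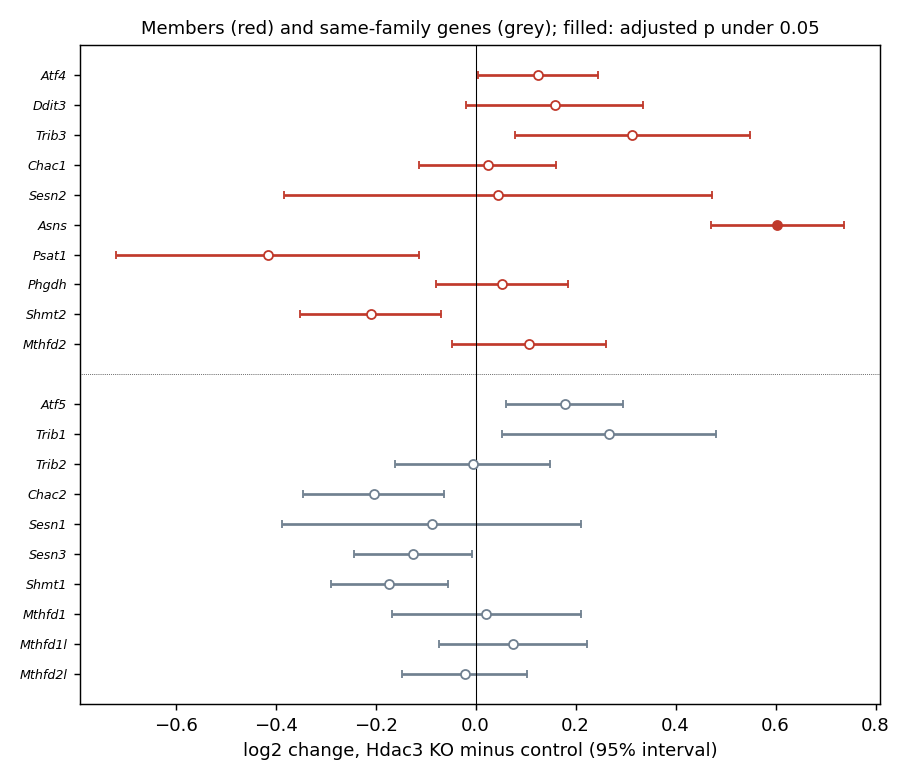
Log2 change, knockout minus control (horizontal axis, points, with 95% intervals from limma), for the 10 members (red, above) and 10 genes of the same families (grey, below), with filled points for an adjusted p under 0.05. Asns at 0.60 is the filled point; the intervals of Psat1 and Shmt2 lie below 0 and those of Atf4 and Trib3 above it, and none of these 4 was called.

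The same-family genes give a view of the members' closest relatives. Limma called 0 of the 10 measured, with or without the replicate block, while 5 reached an unadjusted p under 0.05. Of all genes 13.5% reached that level. Atf5, a bZIP factor related to ATF4, had log2 levels of 7.55, 7.59, 7.68, 7.65 and 7.59 in the knockout lungs, against 7.47, 7.44, 7.50, 7.49 and 7.27 in the control lungs. The groups did not overlap, with a log2 change of 0.18 ± 0.05 (SE, limma adjusted p = 0.115). Shmt1, the cytosolic counterpart of Shmt2, had log2 levels of 7.76, 7.77, 7.62, 7.77 and 7.78 in the knockout lungs, against 8.00, 7.87, 7.78, 7.97 and 7.93 in the control lungs. These did not overlap either, and the log2 change was -0.17 ± 0.05 (SE, limma adjusted p = 0.129), with the same sign as Shmt2.

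Chac2, a glutathione-degrading relative of Chac1, had a log2 difference of -0.20 and no call (limma adjusted p = 0.137, and 0.0205 without control 1, when the change was -0.26). The pseudokinase gene Trib1 had 0.27 (adjusted p = 0.221, and 0.0499 without knockout 5, when the change was 0.34), and Trib2 had -0.01 (95% interval -0.16 to 0.15). The sestrin genes Sesn1 and Sesn3 had -0.09 and -0.13. Sesn1 shared the lower level of lungs 4 and 5 with Sesn2, by 0.38 in knockouts and 0.52 in controls. The folate enzymes Mthfd1, Mthfd1l and Mthfd2l had log2 changes of 0.02, 0.08 and -0.02, with intervals between -0.17 and 0.22.

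Upstream of ATF4, 16 genes of the eIF2 kinases, eIF2 and eIF2B subunits and their regulators were measured, of 18 listed. None of the 16 was called, and 0 had an unadjusted limma p under 0.05, a level that 13.5% of all genes reached. The log2 changes of the 16 ran from -0.12 to 0.19, with a median of -0.01. The smallest p belonged to Ppp1r15a, which encodes the phosphatase subunit GADD34 that reverses eIF2alpha phosphorylation and had a log2 change of 0.19 (adjusted p = 0.388). Gcn1, an activator of GCN2, followed with 0.18 (adjusted p = 0.452).

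Of 18 measured genes known as further ATF4 targets or partners, of 20 listed, 0 were called and 6 had an unadjusted limma p under 0.05. Of all genes 13.5% reached that level, and Vldlr, which was lower, is among the 6. The median log2 change of the 18 was 0.09, and 11 were positive, against 52% of all genes. For Cth, which makes cysteine from cystathionine, the log2 change was 0.38 (limma adjusted p = 0.102, and 0.0391 without control 5, when the change was 0.46). Vldlr, a lipoprotein receptor, had -0.22 (adjusted p = 0.0786, 0.0241 with the replicate block and 0.0227 without knockout 5, when the change was -0.26). Vldlr was also called when only genes brighter than the median were tested (adjusted p = 0.0491) and with a trended, robust prior (0.041). The block also called Ddit4, singled out after its values were seen, which encodes an inhibitor of mTORC1 that responds to hypoxia and glucocorticoids as well.

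Ddit4 had log2 levels of 10.24, 10.19, 10.30, 9.64 and 9.09 in the knockout lungs, against 9.22, 9.70, 9.22, 8.80 and 8.60 in the control lungs. Knockouts 1 to 3 lay above every control and knockouts 4 and 5 within the control range. As with Sesn2, lungs 4 and 5 were lowest in both groups, by 0.88 in knockouts and 0.68 in controls. The log2 change was 0.79 ± 0.25 (SE), with limma adjusted p = 0.138, 0.00329 with the replicate block and 0.0223 without knockout 5, when the change was 0.99.

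Of 18 measured cytosolic tRNA synthetase genes, of 20 listed, 0 were called and 0 had an unadjusted limma p under 0.05, against 13.5% of all genes. Their log2 changes ran from -0.16 for Lars, of leucine, to 0.10 for Gars, of glycine, with a median of 0.002. These 2 also had the smallest p (adjusted p = 0.441 and 0.431). Promoter windows were found for 11 genes of this list, and 4 of them, Gars, Iars, Tars and Yars, hold the C/EBP-ATF core.

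Of 26 measured amino acid transporter genes, of 27 listed, 1 was called higher and 0 lower, against 1.54% and 1.58% of all genes. The median log2 change of the list was 0.01. The called gene, Slc7a11, imports cystine in exchange for glutamate, and its promoter holds the core. Its log2 levels were 6.32, 6.24, 6.47, 6.86 and 5.01 in the knockout lungs, against 4.97, 4.84, 5.07, 4.93 and 4.82 in the control lungs. Knockout 5 lay within the control range and the other 4 knockouts lay above it. The log2 change was 1.25 ± 0.26 (SE, limma adjusted p = 0.0201), and without knockout 5 it was 1.54 (adjusted p = 3.51e-05).

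For Slc7a11 every control and knockout 5 stood under the 6.11 that marks the 20th percentile. After raising dimmer values to that level, the change was 0.29 and was not called (adjusted p = 0.254). The call was also lost without knockout 1, 2 or 3 (adjusted p = 0.0517, 0.0503 and 0.0569) and without control 2 or 5 (0.0504 and 0.0518).

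Slc43a2, a transporter of large neutral amino acids, had log2 levels of 9.22, 9.05, 9.12, 8.94 and 8.25 in the knockout lungs, against 8.35, 8.55, 8.23, 8.26 and 7.86 in the control lungs. Knockouts 1 to 4 lay above every control, and knockout 5 lay below controls 1, 2 and 4. The log2 change was 0.67 ± 0.17 (SE), with limma adjusted p = 0.0606, and it was called with the replicate block (adjusted p = 0.00285), among genes above the median level (0.0487) and without knockout 5 (0.83, adjusted p = 0.00201).

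Of 21 measured genes of serine, glycine, folate and proline metabolism outside the members, of 26 listed, 0 were called higher and 2 lower, also with the replicate block. Of all genes 1.54% were called higher and 1.58% lower, and 2.28% and 2.44% with the block. Aldh1l1, a cytosolic folate enzyme that oxidises formyl units to carbon dioxide, had log2 levels of 8.14, 8.35, 8.26, 7.97 and 7.81 in the knockout lungs, against 8.71, 8.79, 8.63, 8.33 and 8.62 in the control lungs. It fell by 0.51 on the log2 scale (SE 0.11, limma adjusted p = 0.0227), and only knockout 2 reached the range of the controls, just above control 4. Prodh, which starts proline breakdown, had log2 levels of 7.10, 7.15, 7.07, 7.15 and 7.17 in the knockout lungs, against 7.29, 7.36, 7.33, 7.30 and 7.32 in the control lungs. Its groups did not overlap, and it fell by 0.19 on the log2 scale (SE 0.04, adjusted p = 0.0235).

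Both calls were close to the threshold. That of Aldh1l1 was lost without knockout 4 (adjusted p = 0.0571) or without control 1, 2, 3 or 5 (0.0643, 0.0578, 0.0564 and 0.0528). That of Prodh was lost without knockout 1 or 3 (adjusted p = 0.0598 and 0.067) or without control 2, 3 or 5 (0.0545, 0.0625 and 0.0528).

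Endoplasmic reticulum stress also activates the ATF6 and IRE1 arms, which raise chaperones. Of 22 measured genes of these arms, of 23 listed, limma called 0, and 2 reached an unadjusted p under 0.05, where 13.5% of all genes did. The 2 were Creld2 and Sdf2l1, both of the secretory pathway, with log2 changes of 0.12 and 0.19 (adjusted p = 0.28 and 0.301). The list's median was 0.02, with changes from -0.15 to 0.19.

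**Figure D3:**
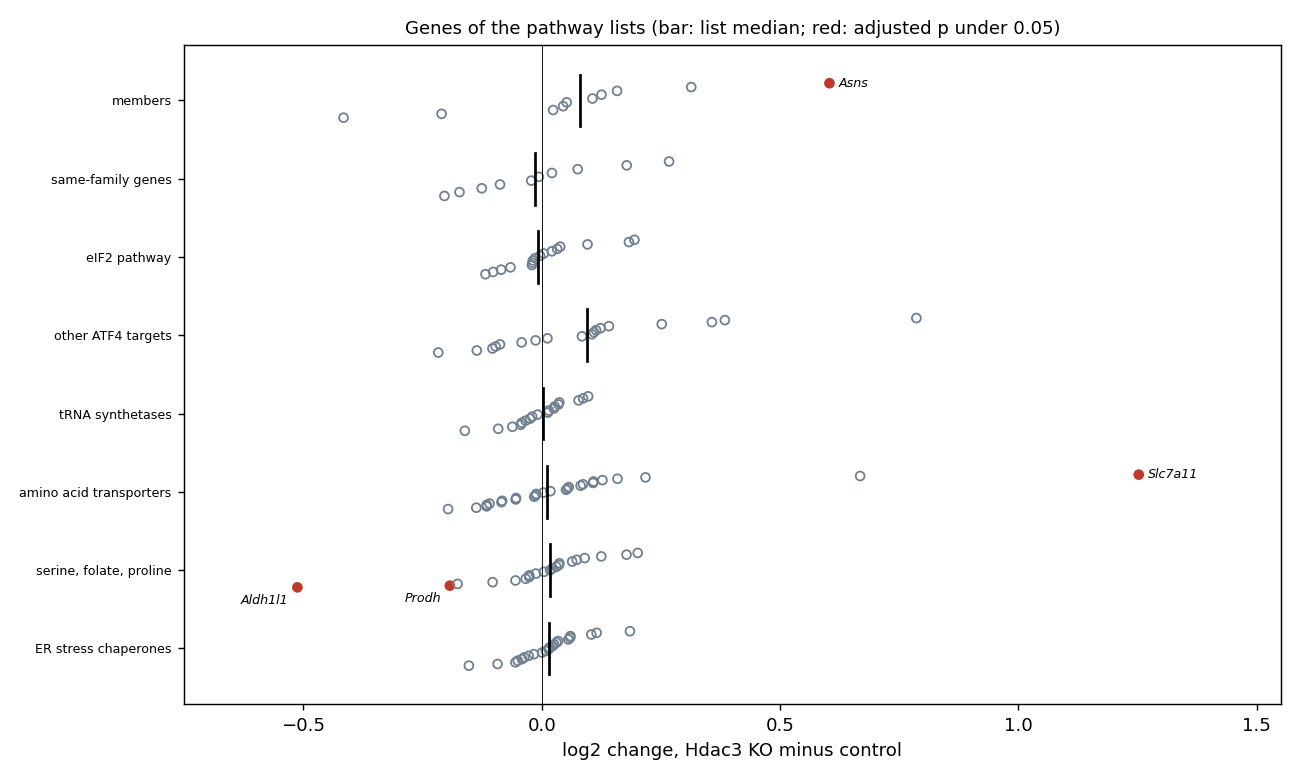
Log2 change, knockout minus control (horizontal axis), of each measured gene in the members and 7 further lists (rows), with a bar at each list's median and red points for an adjusted p under 0.05. Of the members Asns is red, and outside them Slc7a11 is red on the higher side and Aldh1l1 and Prodh on the lower side.

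Levels of cell type markers are given here beside Asns, and their part in its change was not tested. In bulk lung, more cells of a type and more RNA per cell cannot be told apart. The mean of 7 epithelial markers was 9.83 ± 0.02 in the knockout lungs (9.81 to 9.85) and 9.63 ± 0.03 in the control lungs (9.60 to 9.67) (log2 level, SD, n = 5 each), and these groups did not overlap. Of the 7, 2 were called higher by limma, against 1.54% of all genes. Those 2, Krt8 (0.74) and the claudin gene Cldn7 (0.32), were named after their values were seen. Among the others, Epcam, Nkx2-1 and Esrp1 had log2 changes of 0.04, -0.04 and -0.02 and Elf3 had 0.19. Cdh1 had 0.18 (limma adjusted p = 0.0517), with groups that did not overlap. The change of Asns was larger than that of 6 of these 7.

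The mean of 5 proliferation markers was 9.27 ± 0.42 in the knockout lungs (8.78 to 9.85) and 9.07 ± 0.30 in the control lungs (8.56 to 9.38) (log2 level, SD, n = 5 each), and 0 of 5 were called. Lung 4 was lowest in each group and knockout 5 highest of all. The mean of 6 leukocyte markers was 8.39 ± 0.10 in the knockout lungs (8.21 to 8.46) and 8.54 ± 0.06 in the control lungs (8.46 to 8.63), and all knockouts lay below all controls by a narrow margin. Limma called 0 of these 6, and with the replicate block 1 lower, Laptm5 (-0.27, adjusted p = 0.0891, and 0.0227 with the block). Of 3 club cell markers, Scgb3a2 was called lower (-1.06, adjusted p = 0.00248), while the log2 changes of Scgb1a1 (-0.15, adjusted p = 0.469) and Cyp2f2 (0.06, adjusted p = 0.717) were not called. Of 5 alveolar type 1 markers, 4 had a positive change and none was called higher, while Pdpn was called lower (-0.52, limma adjusted p = 0.00974). Of 3 measured ciliated cell markers, 2 had a positive change and none was called higher, while Dnah9 was called lower (-0.27, limma adjusted p = 0.00663). Laptm5, Scgb3a2, Pdpn and Dnah9 were singled out after their values were seen. Knockout 5, which departed from the other knockouts in Slc7a11 and Slc43a2, had the lowest leukocyte mean of all lungs. The same lung also had the lowest mean of alveolar type 2 markers (11.98) and the highest of erythroid markers (7.15).

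**Figure D4:**
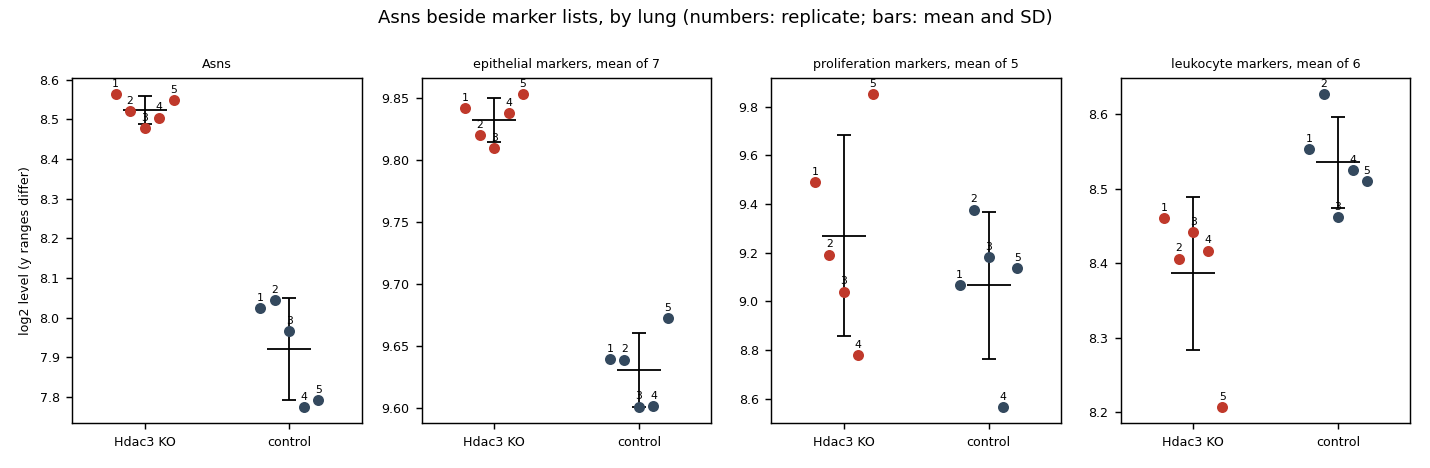
Log2 level of Asns and mean log2 levels of 7 epithelial, 5 proliferation and 6 leukocyte markers (vertical axes, with different ranges) in 5 Hdac3 knockout lungs (red, left) and 5 control lungs (dark, right). Points are lungs with their replicate number and bars the mean and SD; the knockout lungs lie above all controls for Asns and the epithelial mean, below them for the leukocyte mean, and overlap them for the proliferation mean.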

How the data were processed

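Whole lungs of 5 Hdac3 knockout and 5 control embryos at E18.5 were profiled, each from 100 ng of total RNA primed with a poly(T) oligomer, per the labels' protocols. The authors deposited log2 probe set levels, and the submitters' processing notes name oligo, RMA and limma with no versions. Neither the genome build nor any filter on rows was given in the sources used here.

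The table held 24888 probe sets, of which 18922 had 1 gene symbol in the platform annotation. Where a gene had several, the probe set with the highest mean was used, which gave 17919 genes. Knockout was compared with control by limma 3.58.1 in R 4.3.3 (lmFit, eBayes, two-sided, no covariate), p-values adjusted by Benjamini-Hochberg across the 17919 genes, and 0.05 as the threshold. The procedure was tested on simulated data. All members, their same-family genes and Hdac3 were named. From each other list, up to 4 called genes, or the 2 with the smallest p where fewer than 2 were called, were named, with the 3 genes nearest to each called member.

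Members and lists were chosen with earlier results of these data known. List members without a probe set of their own were not analysed here. Deviations of same-numbered lungs from their group means correlated at 0.319, 0.154, 0.183, 0.485 and 0.36. The highest value between different numbers was 0.33. The main fit treats the lungs as unpaired, and the replicate number enters only as a block in an alternative fit. Any pairing is read from the data, not the labels. Alternatives covered every probe set, a level filter, a floor, renormalization, the prior, 2 blocks and leaving out each lung.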

Additional observations from a re-analysis of the deposited data

Results flagged for a closer look

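A lung far from the other 4 of its group was found in 2 of 76 sets of 5 values tested over the named genes; chance alone gives about 1 in 20. Shmt1 was at 7.62 in knockout 3, against 7.76 to 7.78 in the other knockouts, and this lung was the lowest of all 10. Atf5 was at 7.27 in control 5, against 7.44 to 7.50 in the other controls. None of the 10 members had such a value.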

How the results depend on the processing

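The call of Asns held in all 18 alternatives, with a log2 change between 0.57 and 0.63. Of the members, Trib3 was gained with the replicate block (2 members called higher) and with the block of lungs 1 to 3 against 4 and 5 (2), a split noticed in these data, and Shmt2 was gained without knockout 1. The numbers of genes called higher and lower were 276 and 283, 409 and 437 with the replicate block, and 455 and 455 with the block of 2 sets. When each lung was left out in turn, members called lower ranged from 0 to 1. The replicate block changed no other member's call. Uncalled changes near 0 turned sign on leaving out 1 lung: Sesn2 ranged from -0.054 to 0.19, Chac1 from -0.018 to 0.063, Trib2 from -0.045 to 0.033, Mthfd1 from -0.017 to 0.085 and Mthfd2l from -0.059 to 0.0061. The filter to genes above the median level left out Trib3, Chac1, Sesn2, Phgdh and Mthfd2. Array medians subtracted or quantile normalization moved the median of all genes from 0.00425 to 0.000565 or -0.00349. Precision is set by the number of arrays, and Phgdh, Mthfd2 and Slc7a11 lay near or under the 20th percentile of all values.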

Other observations

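Outside the members, the C/EBP-ATF core was found in the promoter windows of 7 of 16 further ATF4 targets, among them Atf3, Nupr1 and Vldlr, and of 3 of 19 amino acid transporters, Slc7a11, Slc7a7 and Slc1a4. It was found in 0 of 9 same-family genes, 0 of 12 genes of the eIF2 arm and 0 of 19 endoplasmic reticulum genes. These shares describe the windows, and several of the lists were built from known ATF4 targets. Slc43a2, Ddit4, Aldh1l1 and Prodh had a window without the core.

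Of the 10 members, 3 were lower in lungs 4 and 5 than in lungs 1 to 3 of both groups, 3 were higher in both, and 4 differed in sign between the groups. These differences of means were not tested. Those lower were Sesn2 (-0.65 in knockouts and -0.58 in controls), Trib3 (-0.17 in knockouts and -0.39 in controls) and Shmt2 (-0.11 in knockouts and -0.07 in controls). Those higher were Ddit3 (0.19 in knockouts and 0.16 in controls), Chac1 (0.10 in knockouts and 0.04 in controls) and Phgdh (0.15 in knockouts and 0.0032 in controls). For Asns the difference was 0.01 in knockouts and -0.23 in controls. What the numbers share was not stated in the labels.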
